A study of Pogona vitticeps with 24 samples.

Results

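Epithelium was compared with mesenchyme in the anterior jaw of wild-type (WT) hatchlings of the bearded dragon *Pogona vitticeps*, as the level of each gene in dental lamina epithelium minus its level in the mesenchyme around it. All genes with a mean of at least 3 on the log2 scale of CPM (read counts scaled to the size of the library) over the 7 usable columns of the table were members, which gave 9987 genes of the 11126 in the table. The rule used the level of a gene and not its difference between the tissues.

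The study sequenced RNA of dental tissues cut out by laser capture microdissection, from 3 WT hatchlings and 3 hatchlings carrying 1 mutated copy of the *EDA* locus (*Sca*/+, scaleless). Epithelium and mesenchyme were cut from the front of the jaw, which in WT bears pleurodont teeth (attached to the inner side of the bone and replaced), and from its posterior part, which in WT bears acrodont teeth (fused to the crest of the bone), which makes 8 groups of 3 samples and 24 samples in all. Hatchlings have a successional dental lamina, a state that the methods place beside tooth initiation in the embryo, and the tooth shape of each *Sca*/+ animal was judged only roughly before sectioning. The deposited table holds 1 value per gene and group, so a difference has no replicate error, no test was made, and WT posterior epithelium was left out because its column holds a filled series. By the methods the samples of all WT groups come from the same 3 animals and those of the *Sca*/+ groups from the other 3, while how the samples were combined into a column is not known.

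Teeth form where a thickened, folded epithelium, the dental lamina, grows into mesenchyme that derives largely from the neural crest. The epithelium later makes enamel and the mesenchyme makes dentin and pulp, and secreted signals of the FGF, Wnt, BMP and Hedgehog families pass back and forth between them. In squamates that replace teeth, the successional lamina keeps this exchange going after hatching.

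The values of the 2 columns are whole multiples of a fixed step, 0.708 CPM in epithelium and 0.722 CPM in mesenchyme, and a step was taken as 1 count. The columns held 1215536 and 1212704 steps, with 45 and 46 for the median gene, so the depth of both sides was close, while the 7 columns ranged from 789353 to 3264515 steps. Intervals given below are exact 95% intervals of the log2 difference from these counts, and they cover counting error only. No gene was listed at 0, the lowest value being 1.42 CPM in the 2 columns and 1.13 CPM in the 7 columns. Genes without a count in any 1 of the 7 columns are therefore not among the genes compared. The part of this limit in the counts toward each tissue was not tested.

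Among these genes, all with counts in all 7 columns, more differed toward mesenchyme than toward epithelium at a threshold of 1 log2 unit. At 0.58 log2 units the counts were nearly equal (2120 and 2116). A difference of at least 1 log2 unit, a 2-fold difference, was counted as higher or lower. By this count 865 genes (8.66%) were higher in epithelium and 1266 (12.7%) lower, and 7856 (78.7%) lay within 1 log2 unit. At 2 log2 units, a 4-fold difference, 71 genes (0.711%) were higher and 421 (4.22%) lower. At 3 log2 units the counts were 8 and 117, and at 4 log2 units 0 and 23. The median difference was 0.06, the central 50% of genes lay between -0.45 and 0.49, and the percentiles 1 and 99 were -3.11 and 1.91. The counting interval left out 0 for 801 of the 865 higher genes and for 1193 of the 1266 lower genes.

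Of the summed CPM of the 9987 genes, the genes lower in epithelium made up 22.1% in mesenchyme and 6.25% in epithelium. The genes higher in epithelium made up 12.0% in epithelium and 4.43% in mesenchyme. Large differences were more frequent among genes of low level. Of the 2497 genes of lowest mean level 399 were higher and 510 lower, and of the 2496 of highest mean level 122 and 216. The 71 genes higher by 2 log2 units had a median of 6 steps in mesenchyme and 33 in epithelium, and the 421 lower genes had 13 in epithelium and 79 in mesenchyme. Because each sample is bulk tissue, fewer cells of a type and less RNA of a gene per cell cannot be told apart.

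**Figure D1:**
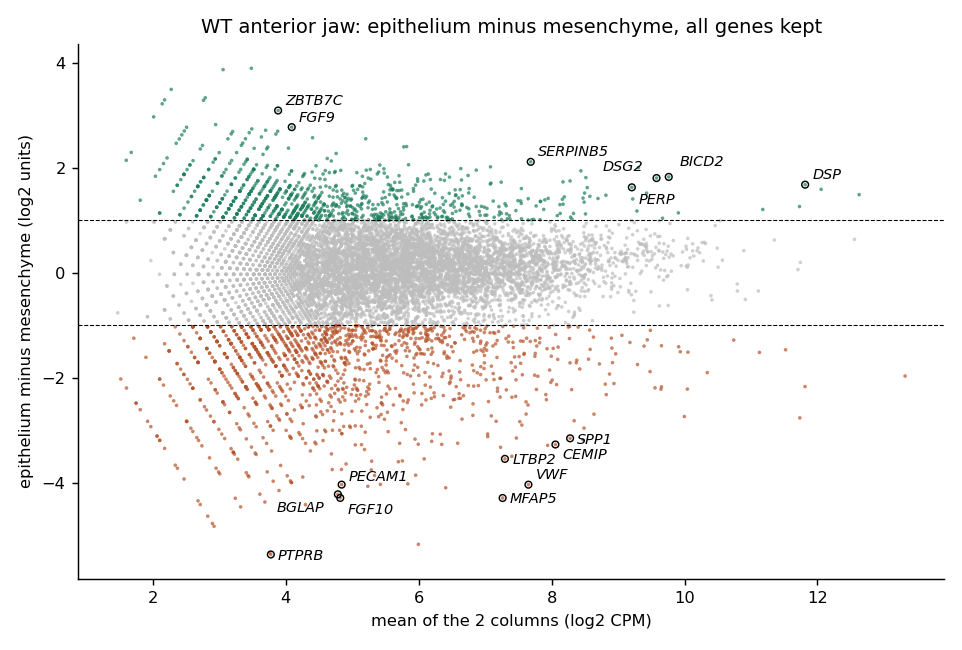
Each point is 1 of 9987 genes, with the mean of the 2 WT anterior columns (log2 CPM) on the horizontal axis and epithelium minus mesenchyme (log2 units) on the vertical axis, dashed lines at 1 and -1, 865 genes above (green) and 1266 below (brown). The cloud reaches to -5.37 on the mesenchyme side and to 3.90 on the epithelium side, and the fan of lines at low levels is the spacing of whole counts.

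Of the 20 named genes that stood highest in epithelium, ranked by the bound of the counting interval nearest to 0, several build the junctions that hold epithelial cells together. *DSP*, which encodes desmoplakin, the protein that ties desmosomes to keratin filaments, was at 6460 CPM in epithelium and 2010 CPM in mesenchyme, a difference of 1.68 (1.62 to 1.75). *DSG2*, a desmosomal cadherin, was at 1430 and 409 CPM, a difference of 1.81 (1.67 to 1.95). *PERP*, a membrane protein of desmosomes, was at 1040 and 336 CPM, a difference of 1.63. Each of these genes was also at least 2-fold higher in epithelium in both *Sca*/+ pairs.

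Other genes of this group are markers or regulators of surface epithelia. *SERPINB5* (maspin), a serpin of stratified epithelia, stood at 429 CPM against 98.9 CPM, a difference of 2.12 (1.85 to 2.40). *ZNF750*, a transcription factor of epidermal differentiation in mammals, stood at 198 against 49.8 CPM, and *ESRP2*, a splicing regulator of epithelial cells, at 204 against 56.3 CPM. The atypical cadherin *FAT2* differed by 1.75, from 570 against 169 CPM. In all 4 genes the 3 epithelium columns lay above the 4 mesenchyme columns.

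Genes with roles inside the cell formed a further part of the same 20. *BICD2*, an adaptor that links cargo to the dynein motor, was at 1640 CPM in epithelium and 460 CPM in mesenchyme, a difference of 1.83 (1.70 to 1.96). *ACO1*, the cytosolic aconitase that also controls iron-related mRNAs, was at 682 and 177 CPM, a difference of 1.95. *TIAM1*, an activator of the small GTPase RAC, was at 687 and 195 CPM, a difference of 1.82. *BICD2* and *TIAM1* were higher by at least 1 in both *Sca*/+ pairs, whereas *ACO1* stood at 0.79 in the anterior and at 1.04 in the posterior pair.

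The signaling members of the 20 were *FGF9*, *SCUBE3*, *RNF43* and *IL17RD*, which are described with their families below. *FAM83B* (2.02), *RHOV* (2.06), *TJP3* (2.70), *ZBTB7C* (3.10), *SERGEF* (3.34) and *CUNH21orf59* (3.88) made up the rest. The largest values came from few counts, since *CUNH21orf59* was at 31.9 CPM against 2.17 CPM, which is 45 steps against 3 (interval 2.24 to 6.21), and *SERGEF* at 22.0 against 2.17 CPM (1.66 to 5.70). Of the 20 genes, 16 were higher by at least 1 in each *Sca*/+ pair, 14 in both, and all 20 had the same sign in both. *TJP3*, *ZBTB7C*, *SERGEF* and *CUNH21orf59* were among the 6 that did not reach 1 in both.

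The 20 named genes that stood highest in mesenchyme included genes of matrix, vessels and bone. *MFAP5*, a glycoprotein of elastin-associated microfibrils, was at 680 CPM in mesenchyme and 34.7 CPM in epithelium, a difference of -4.29 (-4.74 to -3.88), or 19.6-fold. *LTBP2*, which also binds fibrillin microfibrils, was at 538 and 46.0 CPM, a difference of -3.55. *TIMP1*, an inhibitor of matrix metalloproteinases, was at 768 and 78.6 CPM, a difference of -3.29, and *CEMIP*, which takes part in hyaluronan breakdown, was at 828 and 85.7 CPM, a difference of -3.27. *TIMP1* had the same sign but a smaller difference in the *Sca*/+ pairs, at -0.83 and -1.52.

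Vessel genes formed a class of their own in the group. *VWF*, the von Willebrand factor of endothelial cells, was at 815 CPM in mesenchyme and 49.6 CPM in epithelium, a difference of -4.04 (-4.41 to -3.69). *PTPRB*, a phosphatase of endothelial junctions, was at 88.0 and 2.13 CPM, the lowest difference of all genes at -5.37, with an interval of -7.67 to -3.79 because it rests on 3 steps in epithelium. *PECAM1*, an adhesion molecule of endothelial cells, was at 116 and 7.08 CPM, and *ENG*, a co-receptor for TGF-beta on endothelium, at 180 and 14.9 CPM. In the *Sca*/+ pairs these 4 genes differed by between -3.15 and -7.08.

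*BGLAP*, which encodes osteocalcin of bone, was at 119 CPM in mesenchyme and 6.38 CPM in epithelium, a difference of -4.22 (-5.38 to -3.26). *LRRC32*, which holds latent TGF-beta on the cell surface, was at 174 and 10.6 CPM, and *DIO2*, which activates thyroid hormone, at 568 and 50.3 CPM. The water channel *AQP1*, the endocytic adaptor *DAB2*, the transcription factor *ETS1*, the peptidase *ENPEP*, *TINAGL1*, *RARRES1*, *AIF1L* and *FGF10* were the others, with differences from -3.55 to -5.33. Of the 20 genes, 18 were lower in epithelium by at least 1 in both *Sca*/+ pairs. The exceptions were *TIMP1* and *TNFRSF6B*, and *TNFRSF6B*, a decoy receptor of the TNF family in humans, was at 476 CPM in WT anterior mesenchyme and 47.5 CPM in epithelium but at 18.2 and 23.9 CPM in the *Sca*/+ anterior pair and at 5.10 and 12.1 CPM in the posterior pair.

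**Figure D2:**
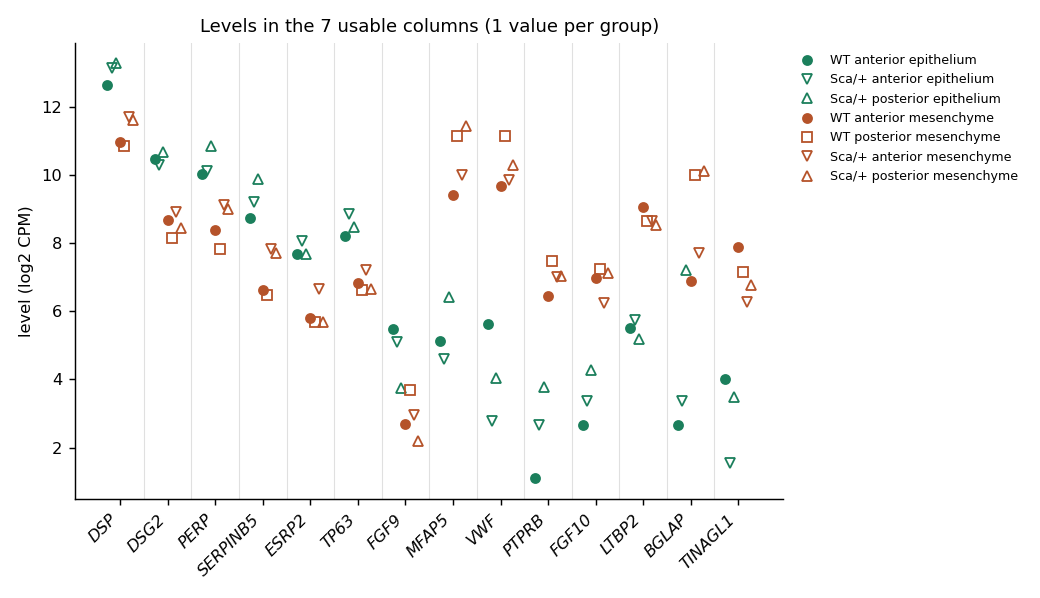
Levels (log2 CPM, 1 value per group) of 7 genes higher in WT anterior epithelium and 7 higher in mesenchyme, with epithelium columns in green, mesenchyme columns in brown and the WT anterior columns filled. The 3 epithelium columns and the 4 mesenchyme columns do not overlap for any of these genes but *BGLAP* (149 CPM in *Sca*/+ posterior epithelium and 119 CPM in WT anterior mesenchyme), and *VWF* is at 49.6 CPM in WT anterior epithelium against 6.84 and 16.5 CPM in the *Sca*/+ epithelium columns.

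Gene lists set up by role carried the same split, and each was described by the number of its members past 1 log2 unit and by its median, beside the 8.66% and 12.7% of all genes and their median of 0.06. Of 11 genes of the desmosome and the cornified envelope, 8 were higher in epithelium and 1 lower (median 1.37). They included *SCEL* (sciellin) at 1.76. The exception was *TGM1*, a transglutaminase that cross-links the envelope, at 12.8 CPM in epithelium and 37.5 CPM in mesenchyme, and it stood at 2.96 and -0.02 in the *Sca*/+ pairs. The list medians there were 1.25 and 1.43.

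Adherens and tight junction genes were higher in epithelium in 11 of 20 cases and lower in 0 (median 1.14). The leading members were *TJP3*, a scaffold of tight junctions, *PATJ*, which sets up apical polarity, at 1.96, *CXADR*, an adhesion receptor at tight junctions, at 1.83, and *MARVELD2* (tricellulin) at 1.54. *TJP1*, the tight junction scaffold that many non-epithelial cells also express, ran the other way at -0.84. Of these members *PATJ* held its size in the *Sca*/+ posterior pair (1.94) and stood at 0.66 in the anterior pair. *MARVELD2* was at 0.26 and -0.30 there.

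Of 21 regulators of epithelial identity, 12 were higher in epithelium and 0 lower (median 1.11). The leading ones were *ZNF750* (1.99), the splicing regulators *ESRP1* (1.91) and *ESRP2* (1.86), and *SPINT1*, an inhibitor of membrane proteases, at 1.67. *TP63*, the master factor of stratified epithelia, was at 299 CPM against 115 CPM, a difference of 1.37 (1.11 to 1.64), and *GRHL2*, which maintains junction genes, at 112 against 52.0 CPM, a difference of 1.11. Both were higher by 1.63 or more in the *Sca*/+ pairs, where the list medians were 0.97 and 0.77. In the posterior pair 9 regulators were higher and 2 lower, *EHF* (-1.66) and *ERBB3* (-1.4). Of 21 keratin genes looked up, 2 were in the table, *KRT8* at 939 against 414 CPM (1.18) and *KRT18* at 199 against 141 CPM (0.50). These keratins of simple epithelia did not part the tissues in the *Sca*/+ pairs in the same way, with *KRT8* at 0.34 and 0.05 and *KRT18* at -0.02 and -1.86.

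Of 15 genes known from dental epithelium, mostly of mammals, 11 were higher in epithelium and 1 lower (median 1.28). *WNT4* was at 47.5 CPM against 12.3 CPM, a difference of 1.95 (1.17 to 2.81). *FOXI3*, a transcription factor whose loss reduces teeth in dogs and mice, was at 67.3 against 18.8 CPM (1.84), and *PITX1*, a homeobox gene of oral epithelium, at 72.3 against 20.9 CPM (1.79). *SOX2*, a marker of epithelial stem cells in the dental lamina, did not part the tissues at 9.21 and 10.1 CPM (-0.13, interval -1.34 to 1.06), and it stood at 0.03 in the *Sca*/+ anterior and 3.38 in the posterior pair. The exception of the list was *IGFBP5*, a binding protein of insulin-like growth factors, at -1.31. Of the genes of enamel matrix and maturation, 2 of 12 were in the table, *FAM83H* at 1.31 and *FAM20A* at -1.36.

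The level of epithelial genes in the mesenchyme column is given here because it bears on all of these differences. The summed CPM of the desmosome list in WT anterior mesenchyme was 34.4% of that in epithelium, and the sums of the keratin, junction and regulator lists were 48.8%, 48.6% and 46.9%. The part of epithelial RNA in the mesenchyme samples in these differences was not tested. In the other direction the summed level of 19 endothelial genes in epithelium was 9.82% of that in mesenchyme, 225 against 2290 CPM. The sums of other lists were higher there. They were 26.9% for fibrillar matrix, 36.1% for bone and dentin, 47.6% for pericytes and smooth muscle and 65.0% for mesenchymal transcription factors. The part of mesenchymal RNA in the epithelium samples was not tested either.

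**Figure D3:**
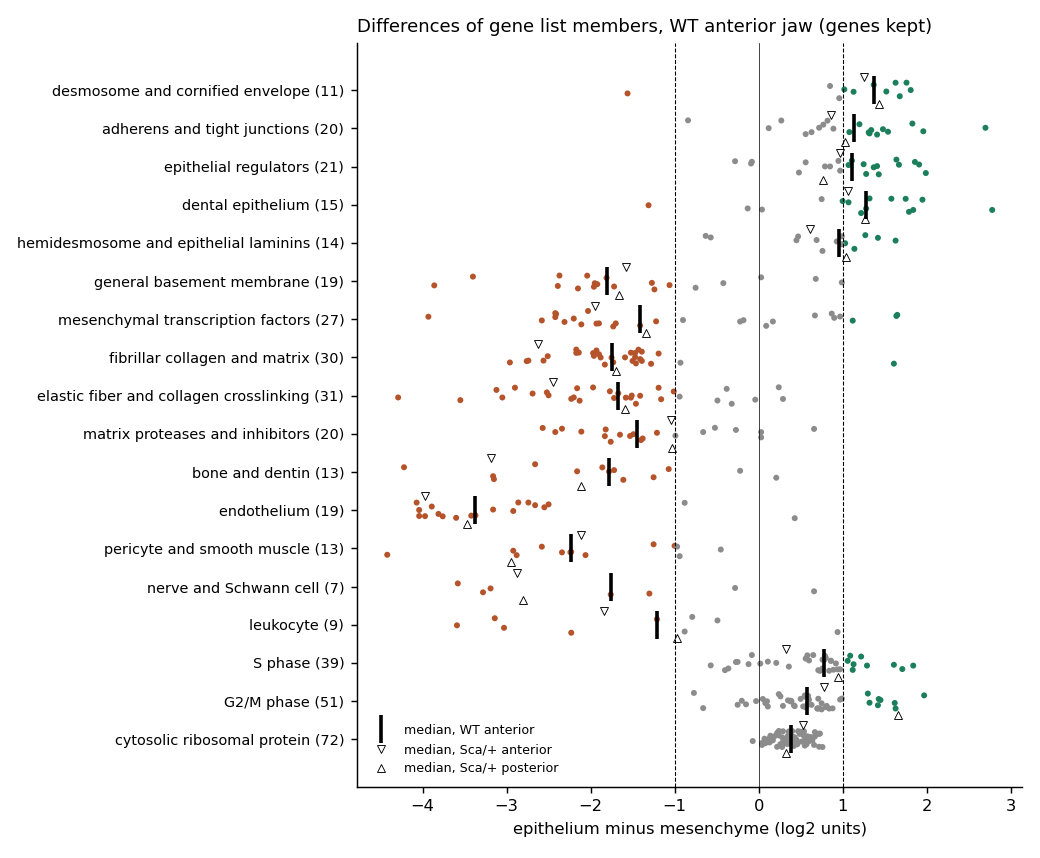
Differences (epithelium minus mesenchyme, log2 units) of the members of 18 gene lists in WT anterior jaw, 1 point per gene with the number of members in brackets, black bars for list medians, triangles for the medians of the *Sca*/+ pairs and dashed lines at 1 and -1. The endothelial list has the lowest median at -3.37 and the desmosome list the highest at 1.37, and the 72 ribosomal protein genes cluster at 0.39.

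RNA levels of genes for proteins at the border of the tissues differed between the lists set up by role. Of 14 genes of hemidesmosomes and epithelial laminins, which anchor epithelial cells to the basement membrane, 5 were higher in epithelium and 0 lower (median 0.96). *FRAS1*, an extracellular matrix protein of the epithelial basement membrane, was at 653 against 211 CPM (1.63), *COL7A1*, the collagen of anchoring fibrils, at 679 against 254 CPM (1.42), and *DST* (dystonin), which links hemidesmosomes to keratin, at 5270 against 2190 CPM (1.27). *LAMB3*, a chain of laminin-332, was at 1.14. In the *Sca*/+ pairs the list medians were 0.61 and 1.05.

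General basement membrane genes mostly went the other way, with 0 of 19 higher and 14 lower in epithelium (median -1.81). *COL4A2*, a chain of collagen IV, was at 43.2 CPM in epithelium and 227 CPM in mesenchyme, a difference of -2.39. *NID2* (nidogen) differed by -3.40, *LAMA4*, a laminin chain of vessels and muscle, by -2.37, and *TINAGL1* by -3.86. Of the 14 genes, 11 were lower by at least 1 in all 3 pairs. *AGRN* (agrin) was the highest member at 0.99.

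Transcription factors of mesenchyme were lower in epithelium in 15 of 27 cases and higher in 3 (median -1.41). *EBF1*, a factor of stromal and blood cells, was at 1.42 CPM in epithelium and 21.6 CPM in mesenchyme (-3.93), with an interval of -7.04 to -1.96 from 2 steps. *ZEB1*, a repressor of epithelial genes, was at 39.7 and 212 CPM (-2.42), *SNAI1*, which acts in the same way, at 12.0 and 64.2 CPM (-2.42), and *TBX2* at -2.58. The related *SNAI2* stood at 0.67, with 151 CPM in epithelium and 94.5 CPM in mesenchyme, and at 0.55 and 0.70 in the *Sca*/+ pairs.

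Factors known from dental mesenchyme stood on both sides of 0. *MSX1*, which dental mesenchyme needs to pass the bud stage in mice, was at 9.21 CPM in epithelium and 39.7 CPM in mesenchyme (-2.11). *PAX9*, an early marker of that mesenchyme, was at 10.6 and 40.4 CPM (-1.93), and *PRRX1*, a factor of jaw and limb mesenchyme, at 20.5 and 102 CPM (-2.31). The homeobox genes *MSX2* (0.90), *DLX3* (0.97) and *DLX5* (0.17) of the same list did not pass 1. All 15 lower factors were lower by at least 1 in both *Sca*/+ pairs as well. The 3 higher ones were *MEIS2* (1.65), *TSHZ1* (1.64) and *NR2F2* (1.12), and none of them was higher by at least 1 in both *Sca*/+ pairs.

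Matrix genes were lower in epithelium almost throughout. Of 30 genes of fibrillar collagen and associated matrix, 28 were lower in epithelium and 1 higher (median -1.74), and their summed level was 67800 CPM in mesenchyme against 18200 CPM in epithelium. *POSTN* (periostin), found in periosteum and periodontal ligament, was at 1000 and 129 CPM (-2.96), *COL3A1* at 8870 and 1310 CPM (-2.76) and *FN1* (fibronectin) at 2640 and 396 CPM (-2.74). *COL1A1*, the main collagen of bone and dentin, was at 20200 CPM in mesenchyme and 5170 CPM in epithelium (-1.97), and in the other 3 mesenchyme columns it ranged from 31900 to 78300 CPM. WT anterior mesenchyme therefore had the lowest collagen level of the 4 mesenchyme columns, with a list sum of 67800 CPM against 94400 to 182000 CPM. The exception was *COL14A1*, a collagen that binds to fibril surfaces, at 326 CPM in epithelium and 107 CPM in mesenchyme (1.61, interval 1.34 to 1.89), and it was higher in epithelium by 2.09 and 1.48 in the *Sca*/+ pairs.

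Elastic fiber and collagen cross-linking genes were lower in epithelium in 24 of 31 cases and higher in 0 (median -1.67). After *MFAP5* and *LTBP2* came *ELN* (elastin) at 388 CPM in mesenchyme and 44.6 CPM in epithelium (-3.12) and *EMILIN1*, an elastin interface protein, at 52.7 and 6.38 CPM (-3.05). Of the 24 genes, 21 were lower in all 3 pairs. Matrix proteases and their inhibitors were lower in 13 of 20 cases and higher in 0 (median -1.44), led by *ADAMTS5* (-2.57), *MMP9* (-2.42), *MMP16* (-2.34) and *MMP2* (-2.11). *MMP9*, a gelatinase of leukocytes and osteoclasts, was at -0.91 and 0.02 in the *Sca*/+ pairs.

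Bone and dentin genes were lower in epithelium in 11 of 13 cases and higher in 0 (median -1.78), and all 11 were lower in all 3 pairs. *SPP1* (osteopontin) was at 927 CPM in mesenchyme and 104 CPM in epithelium (-3.15), *SP7*, the osteoblast factor osterix, at 25.3 and 2.83 CPM (-3.16), and *OMD* (osteomodulin) at 116 and 18.4 CPM (-2.66). *RUNX2*, which acts upstream of *SP7* in bone and is also expressed in dental tissue, was at 358 and 413 CPM (0.21). Of 8 cartilage genes, 5 were lower, among them the link proteins *HAPLN3* (-3.72, interval -6.85 to -1.73) and *HAPLN1* (4.96 CPM in epithelium and 39.7 CPM in mesenchyme), and *COMP* (-2.20). The cartilage factor *SOX9*, also known from epithelial progenitors, was higher at 171 against 57.0 CPM (1.59). Of 5 osteoclast genes, *CTSK* (-2.15), *ACP5* (-1.94) and *NFATC1* (-1.30) were lower, while *TNFRSF11A* and *ITGB3* stood at 0.89 and -0.61.

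Lists of other cell types that the cut tissue can hold had their members past 1 on the mesenchyme side. Of 19 endothelial genes, 17 were lower and 0 higher (median -3.37, or 10.3-fold higher in mesenchyme), and all 17 were lower in all 3 pairs. *PLVAP*, a protein of vessel fenestrae, was at 154 CPM in mesenchyme and 9.21 CPM in epithelium (-4.07), and *CDH5*, the cadherin of endothelium, at 66.4 and 4.25 CPM (-3.97). The other 2 members were *ERG* at -0.88 and *ARHGEF15* at 0.43. Of 13 genes of pericytes and smooth muscle, 9 were lower and 0 higher (median -2.23), with *ACTA2*, smooth muscle actin, at 37.5 and 4.96 CPM (-2.92), *TAGLN* at 26.0 and 3.54 CPM (-2.88) and *MCAM* at 30.3 and 1.42 CPM (-4.42, interval -7.51 to -2.48).

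Nerve sheath genes were lower in 5 of 7 cases (median -1.76). *MBP*, myelin basic protein, was at 187 CPM in mesenchyme and 15.6 CPM in epithelium (-3.58), *L1CAM*, an adhesion molecule of axons, at 110 and 11.3 CPM (-3.28), and *PRX* (periaxin) at 13.0 and 1.42 CPM (-3.19, interval -6.35 to -1.13). *PMP22*, a myelin protein also found elsewhere, was at -1.76. Of 9 leukocyte genes, 5 were lower (median -1.21), led by *PTPRC* (CD45) at 136 and 11.3 CPM (-3.59), *C1QA* (-3.14), *CSF1R*, the receptor of macrophages, at 133 and 16.3 CPM (-3.03) and *DOCK2* (-2.23). *PTPRC* in WT anterior mesenchyme was above its range of 6.80 to 15.6 CPM in the other 3 mesenchyme columns. Skeletal muscle left 1 gene, *ACTA1*, at 7.94 and 2.83 CPM, red blood cells left *SPTB* at 0.90, and no melanocyte gene was kept. By their medians the lists of endothelium, pericytes and smooth muscle, nerve sheath and leukocytes therefore went with the matrix lists. The part of these cell types in the count of 1266 genes was not tested.

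Complement, acute phase and NF-kappaB target genes were lower in epithelium in 13 of 28 cases and higher in 0 (median -0.94). Apart from *TNFRSF6B*, the complement protease genes *C1R* at 185 CPM in mesenchyme and 20.5 CPM in epithelium (-3.17) and *C1S* at 860 and 122 CPM (-2.82) led the list, followed by *C2* (-2.79). The summed level of the list in WT anterior tissue was 7520 CPM in mesenchyme and 2870 CPM in epithelium, against 1560 to 2980 CPM in the other mesenchyme columns and 861 to 1210 CPM in the other epithelium columns. Both WT anterior columns were thus above the other columns of their tissue. The 6 genes of the list that were lower in epithelium in all 3 pairs were *C1R*, *C1S*, *C5*, *C7*, *CP* and *SERPING1*. The NF-kappaB genes *NFKBIA* (-0.45), *NFKB1* (0.06) and *NFKB2* (-0.33) stood within 1 log2 unit. *TNFAIP3* (-1.07) and *TNIP1* (-1.09) were lower, but neither was lower by at least 1 in both *Sca*/+ pairs. Of 13 immediate early genes 1 was higher and 2 were lower, beside 8.66% and 12.7% of all genes. The phosphatase *DUSP1* (-1.94) and the mRNA decay factor *ZFP36* (-1.14) were lower, *RHOB* (1.04) was higher, and *JUNB* stood at -0.98. In the *Sca*/+ anterior and posterior pairs *DUSP1* stood at -0.14 and -2.32, *ZFP36* at 0.19 and -1.15, *RHOB* at 1.03 and 1.49 and *JUNB* at 1.24 and -0.57.

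Among the secreted signals, FGF ligands sat on opposite sides. *FGF9*, an epithelial signal that acts on mesenchyme in mouse teeth, was at 44.6 CPM in epithelium and 6.50 CPM in mesenchyme, a difference of 2.78 (1.76 to 3.97). *FGF10*, a mesenchymal signal that maintains dental epithelium in mouse incisors, was at 6.38 and 125 CPM, a difference of -4.29 (-5.44 to -3.33), and *FGF7*, which acts on the same receptor form, at 22.0 and 134 CPM, a difference of -2.60 (-3.20 to -2.05). All 3 kept their direction in the *Sca*/+ pairs, with *FGF9* at 2.13 and 1.56, *FGF10* at -2.88 and -2.87 and *FGF7* at -2.88 and -2.34. Of 20 FGF ligands looked up, these 3 were in the table.

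The receptors did not part the tissues to that degree. *FGFR2* was at 176 CPM in epithelium and 139 CPM in mesenchyme (0.34), and its splice forms, which decide the ligands it binds, are not resolved by gene values. *FGFR1* and *FGFR3* stood at -0.31 and -0.58. The heparan sulfate co-receptors *SDC2* (-1.53), *SDC3* (-1.61) and *SDC4* (-1.54) were lower in epithelium. Of 9 FGF targets and feedback genes, *IL17RD*, a membrane inhibitor of FGF signaling, was higher at 163 against 44.0 CPM (1.89), *SPRY4* was lower at 22.7 against 53.4 CPM (-1.24), and the others stood between -0.33 and 0.54.

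Of 6 Wnt ligands, *WNT4* (1.95) and *WNT7B* were higher in epithelium, the latter at 31.9 against 15.2 CPM (1.07, interval 0.29 to 1.89), and both were higher by at least 1 in both *Sca*/+ pairs. *WNT2B* at 7.79 against 26.7 CPM (-1.78) and *WNT11* at 48.9 against 151 CPM (-1.63) were lower, and neither was lower by at least 1 in both *Sca*/+ pairs. The R-spondin receptors *LGR5* and *LGR6*, which raise Wnt signaling and mark stem cells in several mammalian epithelia, stood on opposite sides. *LGR5* was at 214 CPM in mesenchyme and 25.5 CPM in epithelium, a difference of -3.07 (-3.61 to -2.56), and at -5.02 and -4.43 in the *Sca*/+ pairs. *LGR6* was at 165 CPM in epithelium and 70.7 CPM in mesenchyme, a difference of 1.22 (0.88 to 1.58), and at 1.26 and 1.58.

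Among the Frizzled receptors, *FZD6* (1.13) was higher in epithelium, and *FZD1* (-1.76), *FZD2* (-1.21) and *FZD4* (-1.17) were lower. In both *Sca*/+ pairs *FZD1* and *FZD2* were again lower by at least 1. There *FZD4* stood at 1.88 and 0.54, and *FZD6* at 0.99 and 0.21. The Wnt5a receptor *ROR1* was higher at 1.41. Of 10 secreted Wnt modulators, the antagonists *SFRP4* at 40.4 CPM in mesenchyme and 1.42 CPM in epithelium (-4.83, interval -7.92 to -2.91), *DKK2* at 183 and 43.2 CPM (-2.08) and *SFRP2* at 253 and 73.7 CPM (-1.78) were lower in epithelium. *FRZB*, another antagonist, was higher at 17.0 against 5.77 CPM (1.56, interval 0.36 to 2.92) and stood at -0.41 and -1.70 in the *Sca*/+ pairs. The targets *RNF43*, an enzyme that removes Wnt receptors, at 36.1 against 5.77 CPM (2.65), and *LEF1*, a nuclear factor of the pathway, at 113 against 54.1 CPM (1.07) were higher, with 8 other targets between -0.78 and 1.00.

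**Figure D4:**
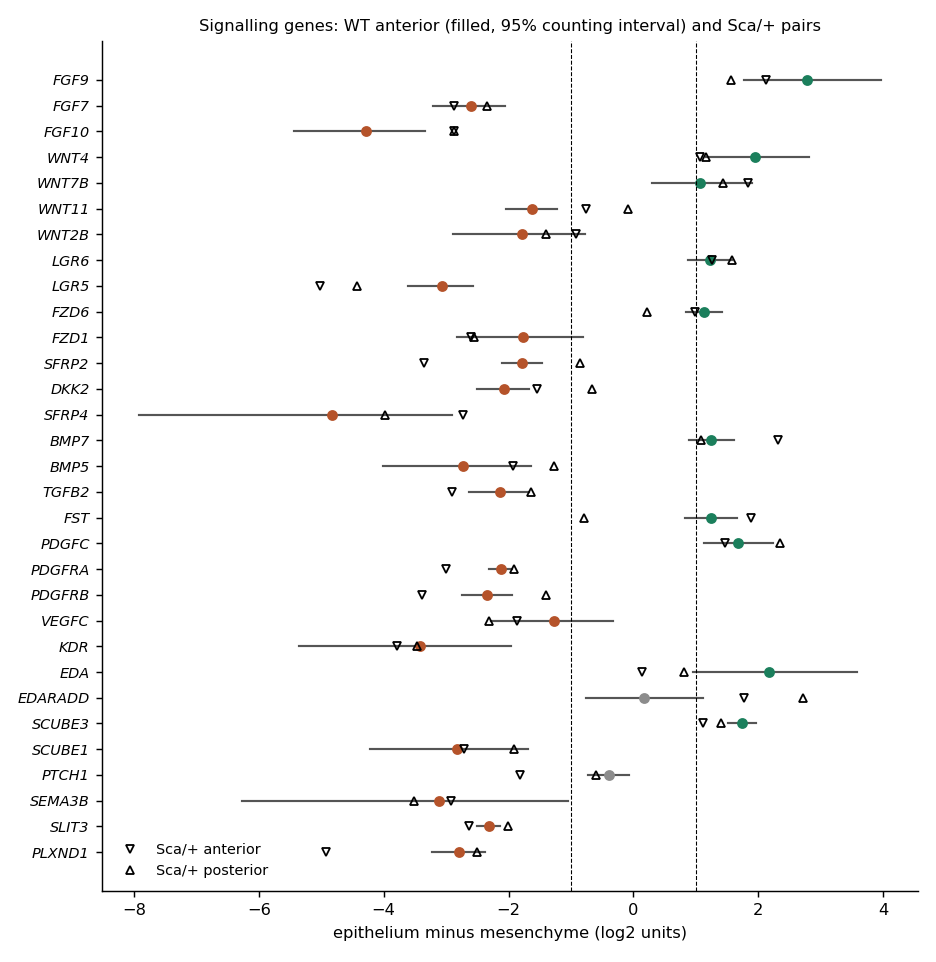
Epithelium minus mesenchyme (log2 units) of selected signaling genes in WT anterior jaw (filled points, lines for the 95% counting interval) and in the *Sca*/+ pairs (open triangles), with dashed lines at 1 and -1. *FGF9* lies at 2.78 and *FGF10* at -4.29, *LGR6* at 1.22 and *LGR5* at -3.07, and *EDA* at 2.17 against 0.13 and 0.81 in the *Sca*/+ pairs.

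Of 9 ligands of the BMP and TGF-beta family, *BMP7*, expressed in early dental epithelium of mice, was higher at 163 against 68.6 CPM (1.25). *BMP5* (-2.73), *TGFB2* (-2.14), *INHBA*, the activin subunit of dental mesenchyme (-1.76), *TGFB1* (-1.43) and *TGFB3* (-1.07) were lower. Of these, 4 were lower in all 3 pairs, while *TGFB1* stood at 0.59 and -0.66 in the *Sca*/+ pairs. Of 9 receptors, *ENG* and *TGFBR3* (-1.43) were lower and the others stood between -0.55 and 0.37. Antagonists were lower in 6 of 9 cases, among them *FSTL1* (-2.42), *FSTL3* (-2.17), *CHRDL1* (-1.89), *BAMBI* (-1.39) and *TWSG1* (-1.09), and all 6 were lower in all 3 pairs. *FST* (follistatin), which binds activin, was higher at 123 against 52.0 CPM (1.24), and at 1.89 and -0.79 in the *Sca*/+ pairs. The BMP target *ID4* was higher at 48.9 against 13.0 CPM (1.91), with *ID3* at 0.40. In the *Sca*/+ pairs *ID4* stood at -0.15 and 0.14.

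In the EDA pathway, which the study examined through its mutant and by in situ hybridization, *EDA* itself parted the tissues in WT anterior jaw. The study reported that genes of this pathway did not differ significantly between genotypes. Differences between the pairs were not tested here. The ligand gene *EDA* was at 22.7 CPM in WT anterior epithelium and 5.05 CPM in mesenchyme, a difference of 2.17 (0.96 to 3.59). In the *Sca*/+ pairs it was at 18.6 and 16.9 CPM (0.13) and at 10.9 and 6.23 CPM (0.81), and in WT posterior mesenchyme at 11.1 CPM. The adaptor gene *EDARADD* was at 16.3 and 14.4 CPM (0.17, interval -0.75 to 1.12) and stood at 1.78 and 2.72 in the *Sca*/+ pairs. Of the 10 listed genes of the pathway, *EDA* alone was past 1 in WT anterior tissue, beside 8.66% higher and 12.7% lower of all genes. The list median was -0.02, and the receptor gene *EDAR* was not analysed here.

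Of 11 genes of Hedgehog ligand release and reception, 2 were higher in epithelium and 1 lower, beside 8.66% and 12.7% of all genes. The ligand *SHH* was not analysed here. *PTCH1*, the receptor and a target of the pathway, was at 97.0 CPM in epithelium and 128 CPM in mesenchyme (-0.40, interval -0.73 to -0.07). *SCUBE3*, a secreted protein that helps release Hedgehog and acts as a co-factor of other ligands, was at 526 against 158 CPM (1.74, interval 1.52 to 1.96), and its relative *SCUBE1* at 4.96 against 35.4 CPM (-2.83). *HHAT*, which attaches palmitate to Hedgehog ligands, was at 19.1 against 4.33 CPM (2.14, interval 0.84 to 3.71), and at -0.79 and 1.42 in the *Sca*/+ pairs. The 5 transducers stood between -0.45 and 0.71.

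The list of PDGF and VEGF receptors was the one receptor list whose kept members all passed 1. In it 8 of 8 were lower in epithelium (median -2.23) and 8 of 8 in all 3 pairs. The list also held *TEK*, a receptor of angiopoietins, and the receptor-like *PDGFRL*. Its members *KDR*, *FLT1* and *TEK* are in the endothelial list as well. *PDGFRA*, a marker of dental and other mesenchyme, was at 934 CPM in mesenchyme and 215 CPM in epithelium (-2.12), *PDGFRB*, of pericytes, at 230 and 45.3 CPM (-2.34) and *KDR*, the main VEGF receptor of endothelium, at -3.42. *FLT1* (-2.74), *TEK* (-2.66), *NRP1* (-1.97), *NRP2* (-1.79) and *PDGFRL* (-1.49) were the others. Of the listed ligands, *PDGFC* was higher in epithelium at 85.0 against 26.7 CPM (1.67). *PDGFD* (-1.32), *VEGFC* (-1.26) and *ANGPT1*, which encodes a ligand of TEK (-1.49), were lower. In Notch signaling, *DLL4*, a ligand of endothelium, was lower at 14.2 against 53.4 CPM (-1.91), and *HEY1*, a target, was higher at 25.5 against 11.6 CPM (1.14).

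Of 10 class 3 semaphorins, netrins and SLITs, *SEMA3B* (-3.11), *SEMA3D* (-2.46), *SLIT3* at 203 against 1010 CPM (-2.32) and *SEMA3F* (-2.20) were lower and 0 were higher. Of 15 receptors, *PLXND1*, a semaphorin receptor of vessels, at 38.3 against 264 CPM (-2.79), *PLXNC1* (-2.64), *PLXNA3* (-2.20), *ROBO2* (-1.47) and both neuropilins were lower, and *PLXNA2* (1.26) was higher. Among ephrins *EFNA1* (1.87) was higher and *EFNA2* (-1.83) and *EFNB1* (-1.16) were lower. No ephrin was past 1 the same way in all 3 pairs, with *EFNA1* at 0.02 and 0.07 in the *Sca*/+ pairs. Among Eph receptors *EPHA1* (1.52) was higher and *EPHA3* (-1.87) lower. In the IGF list *INSR* (-2.32), *IGFBP4* (-2.30), *IGF2* (-2.04) and *IGFBP5* were lower, and *IGF2* was at 262 CPM in mesenchyme and 63.8 CPM in epithelium. The EGF family had no member past 1 among 2 ligands and 3 receptors, with *EGFR* at 0.24.

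*ITGA2*, a collagen receptor of epithelia, was at 249 CPM in epithelium and 102 CPM in mesenchyme (1.28), and was the 1 of 12 alpha integrins that was higher. Of the 7 lower ones, *ITGA7*, a laminin receptor of muscle, stood at -3.45, *ITGA11*, a collagen receptor of fibroblasts, at -3.23, *ITGA9* at -3.06 and *ITGA10* at -2.18. Among beta integrins *ITGB6*, found in epithelia, was at 144 against 57.7 CPM (1.32), *ITGB8* at 1.09 and the leukocyte chain *ITGB2* at -1.21. Of 8 cadherins, *CDH1* (E-cadherin) was at 455 against 183 CPM (1.31) and *CDH2* (N-cadherin), often taken as mesenchymal, at 438 against 178 CPM (1.30, interval 1.09 to 1.52). Both were higher in epithelium in all 3 pairs, with *CDH2* at 1.71 and 1.19 in the *Sca*/+ pairs. *CDH5* and *CDH11*, of bone and stroma (-1.72), were lower, as was *CDH10* (-1.10).

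The gap junction gene *GJA1* (connexin 43) was higher in epithelium at 142 against 62.8 CPM (1.17) and *GJC1* was lower (-1.03). Of 4 chemokine genes, the chemokine *CXCL14* (1.06) and the scavenging receptor *ACKR4* (1.34) were higher and *ACKR3*, which clears CXCL12, was lower (-1.71). *CXCR4* stood at 0.94.

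Cell cycle genes leaned toward epithelium, mostly by less than 2-fold. Of 39 S phase genes, 9 were higher and 0 lower (median 0.78), and 32 were above 0. *TYMS*, which makes thymidylate, was at 36.1 against 10.1 CPM (1.84), *PRIM1*, a primase subunit, at 1.71, *RRM2*, which makes deoxynucleotides, at 1.61 and *POLA1*, a replicative polymerase, at 1.29. *PCNA*, the sliding clamp of replication, was at 131 CPM in epithelium and 70.7 CPM in mesenchyme (0.89, interval 0.53 to 1.26). Of 51 G2/M genes, 8 were higher and 0 lower (median 0.57), and 45 were above 0. *CDC20*, an activator of the anaphase-promoting complex, was at 28.3 against 7.22 CPM (1.97), *NDC80* of the kinetochore at 1.63, *CCNA2* (cyclin A2) at 1.62 and *UBE2S* at 1.45. *CCNB1* (cyclin B1) was at 42.5 CPM in epithelium and 23.8 CPM in mesenchyme (0.84). In the *Sca*/+ posterior pair 17 of the S phase genes and 40 of the G2/M genes were higher (medians 0.94 and 1.66), and in the anterior pair 3 and 22 (medians 0.33 and 0.78).

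Genes of translation and energy gave small median shifts toward epithelium. Of 72 cytosolic ribosomal protein genes, 0 were past 1, 71 were above 0, and the median was 0.39, with a range of -0.07 to 0.76. The medians of 71 mitochondrial ribosomal protein genes, 51 genes of the respiratory chain and ATP synthase and 41 proteasome subunits were 0.32, 0.21 and 0.38, with 50, 38 and 28 genes above 0 and 21, 13 and 13 below. Of the mitochondrial ribosomal genes 10 were higher and 2 lower, of the respiratory genes 3 and 1, and of the proteasome genes 3 and 0, beside 8.66% and 12.7% of all genes.

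The 2 *Sca*/+ pairs share no column and no animal with the WT anterior pair, so they show how far a difference recurred in other animals, although by the methods they share 3 animals with each other and differ from WT in genotype. Of the 865 genes higher in WT anterior epithelium, 302 (34.9%) were higher in the *Sca*/+ anterior pair, beside 11.5% of all genes, and 315 (36.4%) in the posterior pair, beside 12.1%. Of the 1266 lower genes, 755 (59.6%) were lower in the anterior pair, beside 14.3% of all genes, and 748 (59.1%) in the posterior pair, beside 13.7%. The medians of the higher genes in the *Sca*/+ pairs were 0.68 and 0.69, and those of the lower genes -1.41 and -1.31. All 3 pairs agreed in 155 higher genes (17.9% of 865) and in 606 lower genes (47.9% of 1266). How many of all genes passed 1 the same way in both *Sca*/+ pairs was not counted. These shares, and the list counts over all 3 pairs, therefore have no background beside them.

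Ranges of the columns gave the same picture. In the 5 columns outside the WT anterior pair, both epithelium columns lay above all 3 mesenchyme columns for 404 of the 865 genes (46.7%), beside 21.2% of all genes, and below them for 813 of the 1266 (64.2%), beside 19.6%. Among genes past 2 log2 units these shares were 25 of 71 (35.2%) and 342 of 421 (81.2%). The genes past 2 toward mesenchyme had more counts in both columns than those toward epithelium, as given above, and the part of depth in these shares was not tested. Across the 9987 genes, which all come from the same columns and are not independent replicates, the WT anterior difference correlated with that of the *Sca*/+ pairs with Pearson's r of 0.57 and 0.55. The root mean square difference was 0.94 in the WT anterior pair and 1.12 and 1.06 in the *Sca*/+ pairs.

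**Figure D5:**
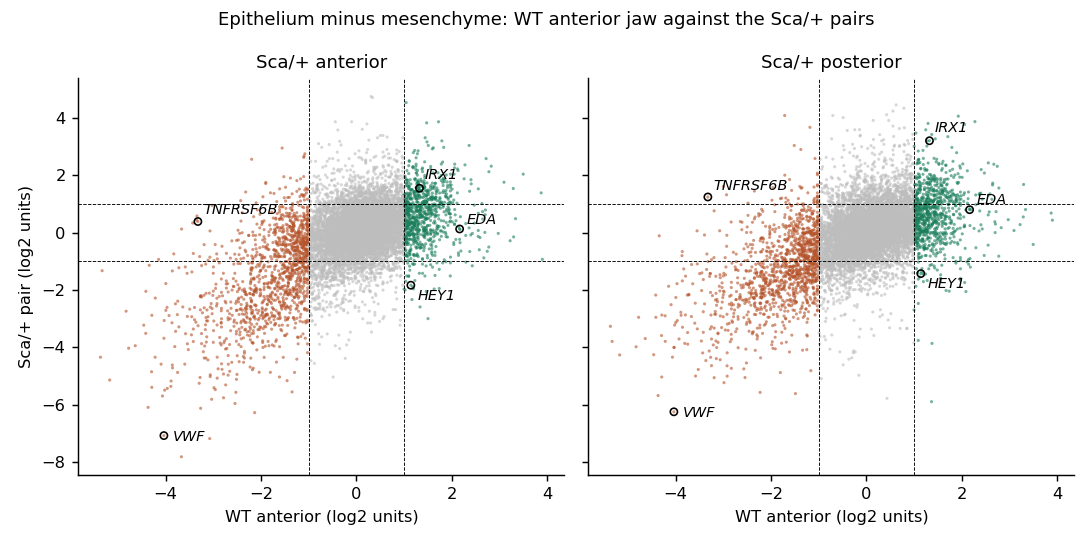
Each point is a gene, with epithelium minus mesenchyme (log2 units) in WT anterior jaw on the horizontal axis and in the *Sca*/+ anterior (left) or posterior (right) pair on the vertical axis, dashed lines at 1 and -1, green for the 865 higher and brown for the 1266 lower genes. *VWF* lies at -4.04 and at -7.08 and -6.25 in the *Sca*/+ pairs, while *TNFRSF6B* and *HEY1* change sign in both.

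Differences in the opposite direction were counted in the same way. Of the 865 higher genes, 38 were lower by at least 1 in the *Sca*/+ anterior pair and 40 in the posterior pair, beside 14.3% and 13.7% of all genes. Of the 1266 lower genes, 44 and 47 were higher there, beside 11.5% and 12.1% of all genes. All 4 counts are smaller shares than those of all genes. A difference in the opposite direction in both *Sca*/+ pairs was held by 7 of the higher genes and 8 of the lower genes. The share of all genes past 1 in both *Sca*/+ pairs was not counted. *HEY1* was at 25.5 CPM in WT anterior epithelium and 11.6 CPM in mesenchyme, and at 2.93 and 10.4 CPM in the *Sca*/+ anterior pair and 5.91 and 15.9 CPM in the posterior pair. Its level in epithelium was thus the one that differed, since its 4 mesenchyme values lay between 10.4 and 15.9 CPM. *HRAS*, a small GTPase, was at 7.79 and 30.3 CPM in WT anterior tissue, at 34.2 and 14.3 CPM in the *Sca*/+ anterior pair and at 35.5 and 11.9 CPM in the posterior pair.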

How the data were processed

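RNA of 24 samples in 8 groups of 3 was trimmed with Trimmomatic, aligned and counted with STAR and normalized by the authors, who used edgeR for their own tests. Versions and the genome annotation are not given in the sources used here. Libraries were depleted of ribosomal RNA. The authors deposited 1 table of log2 CPM, called means, with 1 column per group. The deposited column of WT posterior epithelium, read as a score, rises by the same minute amount at 11120 of its row-to-row steps, and it was left out. The 7 usable columns consist of whole multiples of a fixed step (100% of values, tolerance 0.0065 CPM). Their summed CPM over the table genes ranged from 861122 in WT anterior epithelium to 1047963 in WT posterior mesenchyme. Whether a column is a mean, a pool of reads or 1 library is not known.

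Genes were kept at a mean of at least 3 log2 CPM, and the difference of the WT anterior columns was taken without centring or pseudocount. Past 1 log2 unit was called higher or lower. Intervals are exact Clopper-Pearson intervals of the share of counts. The interval calculation was tested on simulated data. Members were matched to 62 gene lists by symbol, and 323 of 1662 LOC numbers were named through RefSeq. The gene set, lists and rules were chosen with earlier results of these data known. Some genes that the naming rule selects are not reported here.

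Named were the 20 genes of each direction with the interval bound farthest from 0, up to 4 members of each list by size of the difference, members of signaling lists past 1, 10 genes opposite in both *Sca*/+ pairs, and genes that the study measures by other means. *TP63*, *GRHL2*, *SNAI2*, *MSX1*, *MSX2*, *DLX3*, *DLX5*, *PAX9*, *PRRX1*, *COL1A1*, *RUNX2*, *AGRN* and members that run against their list were named after their values were seen. So were *EHF*, *ERBB3*, *C5*, *C7*, *CP*, *SERPING1*, *NFKBIA*, *NFKB1*, *NFKB2*, *TNFAIP3* and *TNIP1*. The description of promoter motifs that was planned was not made. Python 3.11.15 was used with scipy 1.17.1, pandas 2.3.3, numpy 2.4.6 and, for plots, matplotlib 3.10.9.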

Additional observations from a re-analysis of the deposited data

Results flagged for a closer look

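The genes given here differed by at least 1 log2 unit between epithelium and mesenchyme in WT anterior jaw and by at least 1 in the opposite direction in both *Sca*/+ pairs, and were chosen as the 5 of each direction with the largest of their smallest differences. The difference between the pairs was not tested, since each group has 1 value.

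Higher in WT anterior epithelium and lower in the *Sca*/+ anterior and posterior pairs were *RGS3*, a regulator of G protein signaling (1.74 against -1.94 and -2.04), *PEX7*, a receptor of peroxisomal import (1.17 against -2.33 and -1.25), *HEY1* (1.14 against -1.83 and -1.42), *ACKR4* (1.34 against -2.59 and -1.14) and *PLD3* of the phospholipase D family (1.97 against -1.05 and -1.59). Counts were low, with *RGS3* at 17 steps in WT anterior epithelium and 5 in mesenchyme, and the counting interval of *PEX7* included 0 (-0.20 to 2.69).

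Lower in WT anterior epithelium and higher in both *Sca*/+ pairs were *HRAS* (-1.96 against 1.26 and 1.58), *RIPOR2* (-1.80 against 1.39 and 1.19), *KLHDC4* (-1.18 against 1.27 and 3.68), *RAMP1*, a partner of the calcitonin gene-related peptide receptor (-1.10 against 2.63 and 1.14), and *TRAPPC4* of vesicle transport (-1.10 against 2.67 and 1.60). The intervals of *RAMP1* (-2.43 to 0.11) and *TRAPPC4* (-2.35 to 0.05) included 0.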

How the results depend on the processing

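No paired analysis was possible because the table has 1 column per group, and for the same reason leaving out single replicates could not be run. With a filter at a mean of 5 log2 CPM 321 genes were higher and 537 lower, and 96 and 341 were so in all 3 pairs. At a threshold of 0.58 log2 units the counts were 2116 and 2120 (539 and 969 in all 3 pairs), and at 2 log2 units 71 and 421 (1 and 188). The other settings (no filter, a filter on the 2 columns, centring on the median or on a trimmed mean, a pseudocount of 2 CPM, an interval that leaves out 0, and at least 20 steps) gave 712 to 1082 higher and 1137 to 1512 lower genes. List medians moved by less than 0.25 in 246 of 270 cases, and of the 22 medians past 1 in size 9 values fell below 1 under an alternative. The median of the chemokine list reversed to -0.33 with the filter at 5, and that of the Wnt ligands was -1.63 there. With the pseudocount *PEX7* (0.92), *RAMP1* (-0.91) and *TRAPPC4* (-0.92) no longer passed 1. The list matching by deposited symbols alone was chosen after seeing the data. Depth limits genes of few steps, since 63 genes past 1 had under 4 steps in 1 column.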
